A study of Mus musculus with 8 samples.

Results

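Integrins are cell-surface receptors built from an alpha and a beta subunit, each encoded by its own gene. The 10 genes described here encode subunits of leukocyte integrins (Itgal, Itgam, Itgax, Itgb2 and Itga4) and of integrins that bind extracellular matrix (Itgb1, Itga5, Itga6, Itgav and Itgb5). They were chosen by gene symbol from the deposited expression table, which holds 53801 genes. The symbols returned 11 rows, because Itgam stands beside 2 Ensembl identifiers. One of these, ENSMUSG00000030786, is Itgam in the GENCODE M21 annotation (GRCm38). The other, ENSMUSG00000108596, is a protein-coding gene named Gm49368 there and is kept apart below.

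The samples were microglia, the resident macrophages of the brain, sorted from cortex, 1 library from each of 8 mice aged 30 days after birth. Mice 1 to 4 had received IL-33, a cytokine of the interleukin-1 family, in a cerebral ventricle on one side 4 h before collection, and mice 5 to 8 had received vehicle, headed PBS in the expression table. Each group held 2 females and 2 males. The sources used here give no strain, genotype or sorting markers, and do not say whether mice shared a litter or a sorting day. The p-values therefore treat the 8 mice as independent, and an effect of litter or sorting day cannot be told apart. Recovered depth was 6989640 to 9323677 reads per mouse.

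Integrins bind ligands on other cells or in the matrix, and their affinity is set from inside the cell by talins and kindlins, which bind the tail of the beta subunit. The Itgb2 subunit pairs with that of Itgal (giving LFA-1, a receptor for ICAM proteins), Itgam (complement receptor 3, or Mac-1), Itgax (complement receptor 4) or Itgad. Microglia are known for complement receptor 3, which takes part in the removal of complement-tagged synapses. The Itgb1 subunit pairs with many alpha subunits, among them those of Itga4 (a VCAM1 receptor), Itga5 (a fibronectin receptor) and Itga6 (a laminin receptor). The Itgav subunit pairs with several beta subunits, including those of Itgb1, Itgb3 and Itgb5, and binds vitronectin and other ligands with an RGD motif.

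Promoters are shown for 4 of the genes, because Itgax and Itgam are neighbours on chromosome 7 that changed by different amounts, while Itga5 rose and Itgb5 fell. The sequences are RefSeq's (GRCm38.p6), which gave a promoter for 7 of the 10 genes, and run from 250 bases before to 50 bases after the annotated start of transcription. The windows are chr7:128129300-128129599 (plus strand) for Itgax, chr7:128062390-128062689 (plus) for Itgam, chr15:103366742-103367041 (minus) for Itga5 and chr16:33829415-33829714 (plus) for Itgb5. Capitals mark matches on either strand to GGAAGT (the core of sites for PU.1 and other ETS factors), TGANTCA (AP-1) or GGGCGG (SP1).
Itgax: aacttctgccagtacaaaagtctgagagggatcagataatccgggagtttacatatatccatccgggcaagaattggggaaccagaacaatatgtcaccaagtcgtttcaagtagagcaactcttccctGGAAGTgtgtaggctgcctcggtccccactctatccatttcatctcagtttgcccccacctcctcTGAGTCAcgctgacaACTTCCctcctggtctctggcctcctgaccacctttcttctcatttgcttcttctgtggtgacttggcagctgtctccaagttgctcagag
Itgam: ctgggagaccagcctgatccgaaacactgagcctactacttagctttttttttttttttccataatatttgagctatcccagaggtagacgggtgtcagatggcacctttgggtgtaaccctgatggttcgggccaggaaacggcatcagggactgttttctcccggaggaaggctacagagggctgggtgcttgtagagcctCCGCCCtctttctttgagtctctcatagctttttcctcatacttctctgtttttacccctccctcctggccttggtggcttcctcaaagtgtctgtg
Itga5: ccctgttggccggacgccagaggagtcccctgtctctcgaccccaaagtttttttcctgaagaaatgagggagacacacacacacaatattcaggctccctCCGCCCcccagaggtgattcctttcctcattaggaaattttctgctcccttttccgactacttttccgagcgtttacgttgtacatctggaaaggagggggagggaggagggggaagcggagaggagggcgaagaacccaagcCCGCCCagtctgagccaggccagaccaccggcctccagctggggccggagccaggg
Itgb5: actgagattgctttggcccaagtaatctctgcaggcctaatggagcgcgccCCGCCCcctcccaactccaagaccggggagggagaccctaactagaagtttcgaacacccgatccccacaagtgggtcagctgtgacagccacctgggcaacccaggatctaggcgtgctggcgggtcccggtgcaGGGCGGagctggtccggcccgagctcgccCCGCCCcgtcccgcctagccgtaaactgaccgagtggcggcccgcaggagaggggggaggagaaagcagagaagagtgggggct

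The Itgax window held GGAAGT 2 times, with leftmost bases at -121 and -41 from the start, and TGANTCA once at -56. Of 32851 promoters of the same length 23.8% held GGAAGT and 7.81% held TGANTCA. The Itgam window held neither, and had GGGCGG once, on the minus strand, at -47. GGGCGG, found in 35.7% of all promoters, occurred 2 times in Itga5 and 3 times in Itgb5. Among the 3 further genes with a promoter, Itgav held the longer PU.1 motif GAGGAAGT, which contains GGAAGT (3.2% of all promoters). None of the 7 held TATAAA (13.6% of all promoters). A 10-base kB motif, for NF-kB sites, was also searched and had 0 matches in each of the 7. It is rare, at 0.411% of all promoters, so little can be read from its absence in 7. All motifs were searched on both strands. A match is a description of the letters only.

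All 10 genes passed the expression filter, which kept genes reaching 10 normalized counts in 4 or more libraries. With limma and Benjamini-Hochberg adjustment over 15110 genes, 7 of the 10 rose in IL-33 mice and 3 fell, in a comparison in which 57.7% of tested genes were called (29.2% higher and 28.5% lower). The groups did not overlap for 9 of the 10, against 52.3% of all tested genes. Itgal, Itga4, Itga5 and Itgax rose by at least 1 log2 unit, and Itga6 and Itgb5 fell by at least that much. Of all tested genes 11.2% rose and 14.3% fell by as much. The median log2 fold change was 0.66 over the 10 and 0.015 over all tested genes. The 10 were chosen with earlier results of these data known, so no excess over all genes is read from these values. Values below are normalized counts, and log2 fold changes are IL-33 over vehicle on the log2(normalized count + 1) scale. Errors are SD over 4 mice per group unless an SE is named, and adjusted p-values are limma's. In bulk samples such as these, fewer cells of a type and less RNA per cell cannot be told apart.

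**Figure D1:**
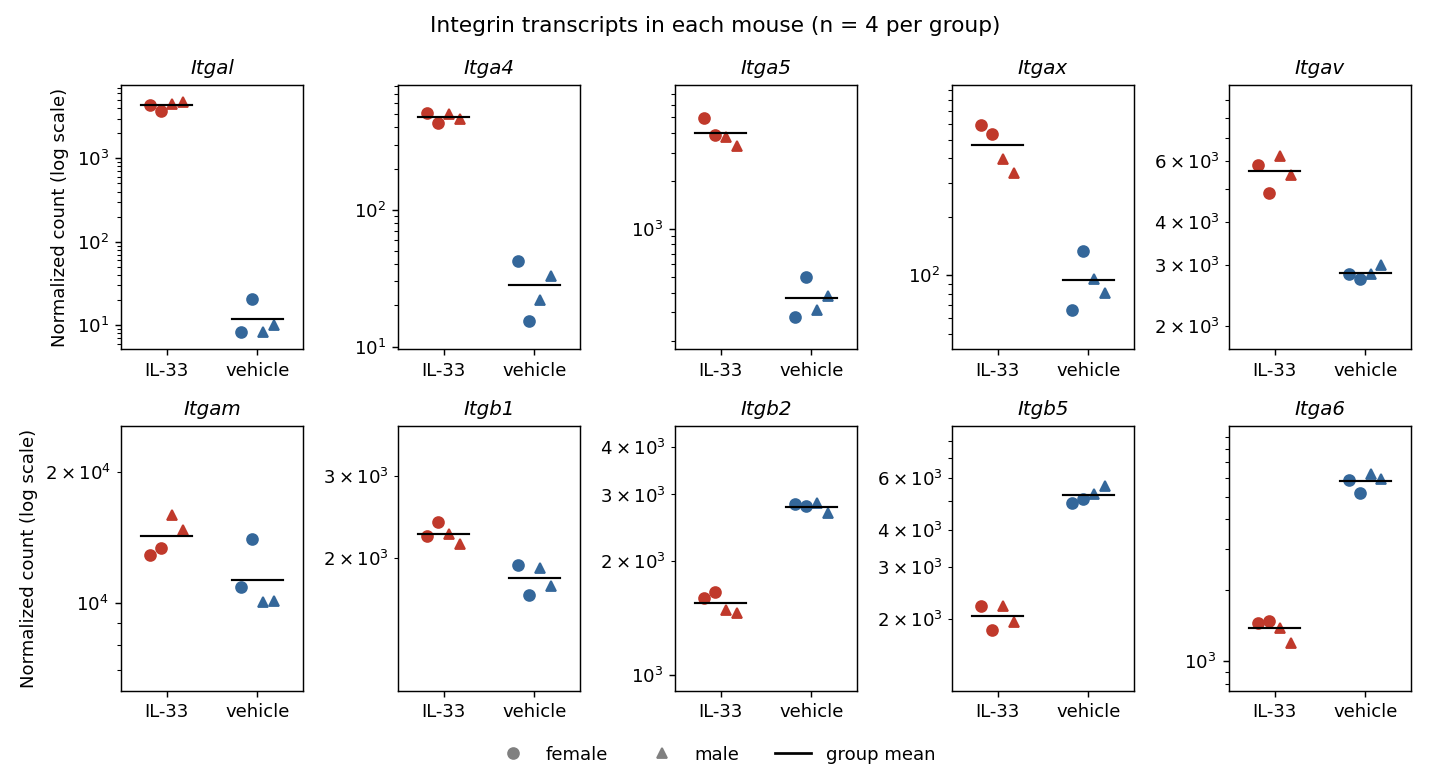
Normalized counts of the 10 integrin genes in each mouse, on log axes, with IL-33 mice in red, vehicle mice in blue, circles for females, triangles for males and a line at the group mean. The groups are apart for every gene but Itgam, where vehicle mouse 6 (14026) lies among the IL-33 mice.

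Itgal, the alpha subunit of LFA-1, changed most (ENSMUSG00000030830, chromosome 7, 127296260 to 127335138). It had 4354, 3689.8, 4440.3 and 4733 normalized counts in IL-33 mice 1 to 4, against 8.41, 20.7, 8.24 and 10.01 in vehicle mice 5 to 8. The lowest IL-33 mouse was 178 times the highest vehicle mouse, which was mouse 6. The log2 change in limma was 8.48 ± 0.24 (SE, adjusted p = 1.67e-10), the sixth largest in size of all tested genes, from 16981 reads in the IL-33 group and 48 in the vehicle group. Without vehicle mouse 6 it was 8.79.

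T cells, NK cells, neutrophils, monocytes and dendritic cells also express Itgal, so their markers are given beside it. The neutrophil markers S100a8, S100a9, Ly6g, Retnlg, Mmp9, Elane and Mpo had no read in any of the 8 libraries. The neutrophil list summed to 3924 to 4962 in IL-33 mice and 4249 to 6261 in vehicle mice, nearly all of it Csf3r. Of 12 T cell markers Cd3e and Cd3d had no read, Cd8a had 15 reads in the IL-33 group and 0 in the vehicle group, and Trac had 5 reads in the IL-33 group and 0 in the vehicle group. The T cell list summed to 80.4 to 109 in IL-33 mice and 646 to 811 in vehicle mice, mostly Il7r. The NK cell markers Ncr1, Gzma, Gzmb, Eomes and Klre1 had no read, Klrb1c had 22 reads in the IL-33 group and 6 in the vehicle group, and the list summed to 15.1 to 17.2 in IL-33 mice and 5.89 to 13.7 in vehicle mice.

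Monocyte markers summed to 317 to 587 in IL-33 mice and 112 to 160.2 in vehicle mice. Among them Vcan and Nr4a1 rose and Ccr2 fell, and Ly6c2 had 1 read in the IL-33 group and 0 in the vehicle group. The dendritic cell list, mostly Siglech, which is also on the microglia list, summed to 3721 to 4604 in IL-33 mice and 9530.0 to 11167 in vehicle mice. In that list 3 of 6 tested genes rose and 1 fell, against 29.2% higher and 28.5% lower over all tested genes. Xcr1 had 156 reads in the IL-33 group and 19 in the vehicle group, and Cd209a had none. B cell markers summed to 1411 to 1737 in IL-33 mice and 2609 to 3392 in vehicle mice, mostly Ighm, which fell. Of 3 tested B cell markers 2 rose and 1 fell, against the same shares over all tested genes, with a median log2 fold change of 1.28. Pax5 and Blk had no read. The part of neutrophils, monocytes, dendritic cells, B cells, T cells and NK cells in the rise of Itgal was not tested.

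Itgax, the alpha subunit of complement receptor 4 and a gene raised in dendritic cells and activated microglia, rose too (ENSMUSG00000030789, chromosome 7, 128129547 to 128150657). It had 597, 536, 397 and 338 normalized counts in IL-33 mice, against 66.5, 133, 96.1 and 81.1 in vehicle mice. The lowest IL-33 mouse was 2.54 times the highest vehicle mouse. On the log2 scale the change was 2.31 ± 0.19 (SE, adjusted p = 9.54e-08).

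Itgam, the alpha subunit of complement receptor 3, had the highest level of the 10 and changed little. It had 12839, 13382, 15889.8 and 14672 normalized counts in IL-33 mice, against 10858, 14026, 10041 and 10073 in vehicle mice. Vehicle mouse 6 lay above 2 of the IL-33 mice, so the groups overlapped. In the fit, the log2 fold change was 0.34 ± 0.11 (SE, adjusted p = 0.0127), with a 95% interval of 0.12 to 0.57. This call did not hold when low genes were left in (adjusted p = 0.15), with quantile normalization (0.132), without limma's trend and robust settings (0.0789), and in females alone (log2 0.087, adjusted p = 0.596).

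The count of Itgam is uncertain because another gene shares its exons. Of 5024 exon bases of Itgam (chromosome 7, 128062640 to 128118491), 3450 (68.7%) are also exon of Gm49368 on the same strand (chromosome 7, 128062683 to 128128160). Counting that drops reads lying on 2 genes would leave 1574 bases for Itgam, and the sources used here do not give the setting. Gm49368 had 26.4, 27.8, 30.1 and 35.6 normalized counts in IL-33 mice, against 10.9, 9.81, 2.75 and 9.01 in vehicle mice. It rose by 1.88 log2 units (adjusted p = 0.000487), from 118 reads in the IL-33 group and 34 in the vehicle group. Itgam had 56208 reads in the IL-33 group and 46804 in the vehicle group. Reads on the shared bases were therefore not counted for both genes. Over its 1574 unshared bases alone, Itgam stood at 9019 per kilobase in IL-33 mice and 7147 in vehicle mice. Levels of Itgam given below use 5024 bases unless stated. They are too low if reads on the shared bases were dropped, and the Itgal and Itgax shares are then too high.

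Itgb2, the beta subunit that pairs with Itgal, Itgam and Itgax, went the other way (ENSMUSG00000000290, chromosome 10, 77530252 to 77565708). It had 1599, 1659.9, 1490.1 and 1456 normalized counts in IL-33 mice, against 2838, 2789.5, 2839.8 and 2677 in vehicle mice. Every IL-33 mouse lay below every vehicle mouse. Its log2 fold change was -0.85 ± 0.07 (SE, adjusted p = 1.41e-08).

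The proportions of these transcripts differed between the groups when levels were compared per kilobase of merged exon length. For Itgam this length, 5024 bases, includes the bases shared with Gm49368. Of the summed Itgal, Itgam, Itgax and Itgad level, Itgal made up 18.3% ± 1.51 in IL-33 mice and 0.07698% ± 0.0242 in vehicle mice. Itgam made up 78.9% ± 1.82 in IL-33 mice and 99.04% ± 0.162 in vehicle mice. Itgax made up 2.77% ± 0.8996 in IL-33 mice and 0.8603% ± 0.166 in vehicle mice. Itgad, the remaining alpha partner, had 14 reads in the IL-33 group and 9 in the vehicle group and was not tested.

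The summed alpha level was 7.08 ± 0.962 times that of Itgb2 in IL-33 mice and 2.48 ± 0.414 times in vehicle mice. The ranges, 6.14 to 8.03 in IL-33 mice and 2.17 to 3.09 in vehicle mice, did not meet. With no length correction the ratio was 12.3 in IL-33 mice and 4.08 in vehicle mice. Shares and ratios were given no test, since they are built from the genes above. Over exon bases shared with no other gene, a length chosen after seeing the data, Itgal made up 6.72% in IL-33 mice and 0.0243% in vehicle mice. The ratio to Itgb2 was then 19.3 in IL-33 mice and 7.85 in vehicle mice.

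**Figure D2:**
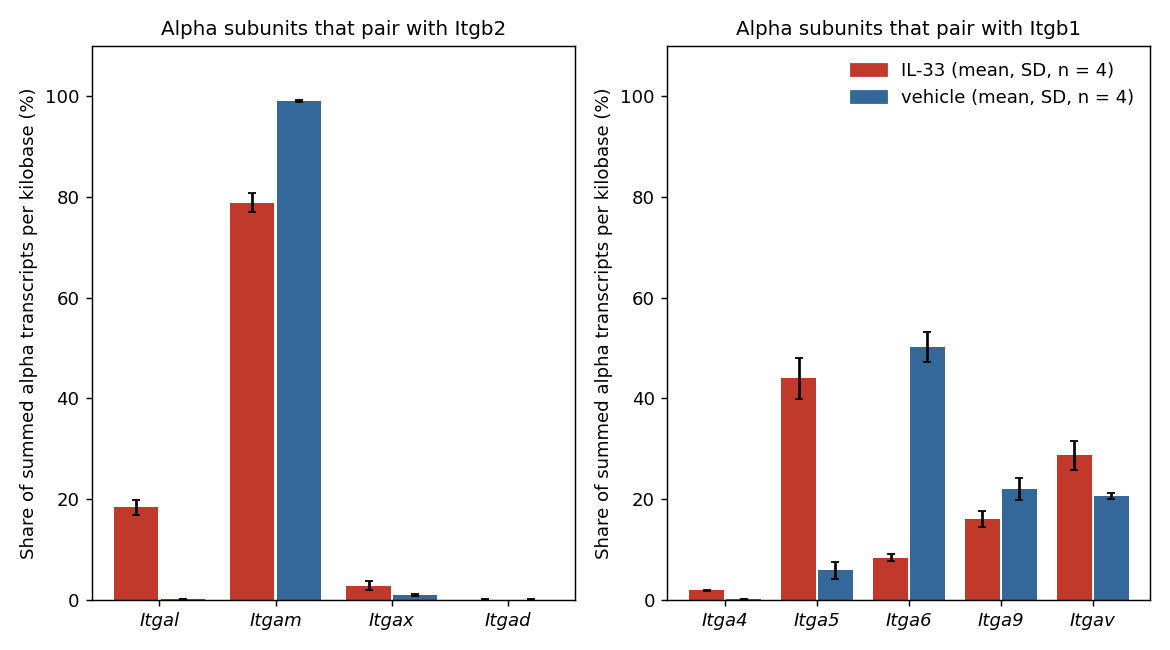
Shares of alpha subunit transcripts per kilobase of exon among the partners of Itgb2 and of Itgb1, as mean and SD of 4 IL-33 mice (red) and 4 vehicle mice (blue). Itgal makes up 18.3% of the Itgb2 partners with IL-33 and 0.07698% with vehicle. Over exon bases shared with no other gene, which are not drawn, these shares are 6.72% and 0.0243%. Itga6 makes up 8.36% of the Itgb1 partners with IL-33 and 50.1% with vehicle.

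Itga4, the alpha subunit of VLA-4, which binds VCAM1 and fibronectin, was low in vehicle mice and rose (ENSMUSG00000027009, chromosome 2, 79255426 to 79333123). It had 511, 433, 499.8 and 459.7 normalized counts in IL-33 mice, against 42.1, 15.3, 21.96 and 33.03 in vehicle mice. The lowest IL-33 mouse was 10.3 times the highest vehicle mouse. The log2 change in limma was 4.13 ± 0.25 (SE, adjusted p = 4.23e-09), from 1884 reads in the IL-33 group and 121 in the vehicle group. Exons of Cerkl on the opposite strand cover 8.04% of its exon bases, and the sources used here do not give the strand setting of the counting.

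Itga5, the alpha subunit of the fibronectin receptor, rose as well (ENSMUSG00000000555, chromosome 15, 103344286 to 103366763). It had 4989, 3884, 3764 and 3287 normalized counts in IL-33 mice, against 282, 503, 312 and 381 in vehicle mice. The groups were far apart, although the IL-33 mice differed by up to 1.52-fold among themselves. On the log2 scale the change was 3.45 ± 0.17 (SE, adjusted p = 6.88e-08).

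Itga6, the alpha subunit of laminin receptors, fell more than any other of the 10 (ENSMUSG00000027111, chromosome 2, 71745616 to 71858416). It had 1450.5, 1479, 1374 and 1195 normalized counts in IL-33 mice, against 5895, 5196, 6239.6 and 5928 in vehicle mice. The IL-33 mean was 0.236 of the vehicle mean. In the fit, the log2 fold change was -2.08 ± 0.084 (SE, adjusted p = 1.38e-12).

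Itgb1, the beta partner of these 3, changed little (ENSMUSG00000025809, chromosome 8, 128685654 to 128733200). It had 2230.5, 2395, 2258 and 2148 normalized counts in IL-33 mice, against 1939, 1668, 1906 and 1744 in vehicle mice. The groups did not overlap, with the lowest IL-33 mouse 1.11 times the highest vehicle mouse. Its log2 fold change was 0.32 ± 0.076 (SE, adjusted p = 0.00179), with a 95% interval of 0.16 to 0.48.

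Among the alpha subunits that can pair with Itgb1, per kilobase of exon, Itga5 made up 43.95% ± 4.01 in IL-33 mice and 5.85% ± 1.68 in vehicle mice. Itga6 made up 8.36% ± 0.691 in IL-33 mice and 50.1% ± 2.99 in vehicle mice. Itga4 made up 1.87% ± 0.119 in IL-33 mice and 0.156% ± 0.0637 in vehicle mice. Itgav, which also pairs with other beta subunits, made up 28.7% ± 2.92 in IL-33 mice and 20.6% ± 0.557 in vehicle mice. Itga5 had the largest of these shares in IL-33 mice and Itga6 in vehicle mice. The first depends on the length used: with no length correction Itgav averaged 5605 normalized counts in IL-33 mice and Itga5 3981, and divided by the longest transcript they stood at 795 and 902 per kilobase. Itga9, a receptor subunit for tenascin that is not among the 10, made up 16.04% ± 1.51 in IL-33 mice and 21.99% ± 2.14 in vehicle mice. The summed alphas, which include Itgav, were 3.31 ± 0.3502 times Itgb1 in IL-33 mice and 2.898 ± 0.169 times in vehicle mice, with overlapping ranges.

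Itgav, the alpha subunit of vitronectin receptors, rose (ENSMUSG00000027087, chromosome 2, 83724397 to 83806916). It had 5836, 4861, 6234 and 5491 normalized counts in IL-33 mice, against 2831, 2743, 2829 and 2998 in vehicle mice. The lowest IL-33 mouse was 1.62 times the highest vehicle mouse. The log2 change in limma was 0.97 ± 0.076 (SE, adjusted p = 6.49e-09). Exons of Gm13684 on the opposite strand cover 5.901% of its exon bases.

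Itgb5, a beta partner of Itgav in a vitronectin receptor, fell (ENSMUSG00000022817, chromosome 16, 33829665 to 33949338). It had 2209, 1825, 2203 and 1942 normalized counts in IL-33 mice, against 4912, 5095, 5292 and 5609 in vehicle mice. Every IL-33 mouse lay below every vehicle mouse. On the log2 scale the change was -1.36 ± 0.077 (SE, adjusted p = 1.15e-10). Itgb3, another beta partner of Itgav and not among the 10, also fell, with 190.1 ± 27.1 in IL-33 mice and 1082 ± 73.9 in vehicle mice (log2 -2.51, adjusted p = 1.45e-12).

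**Figure D3:**
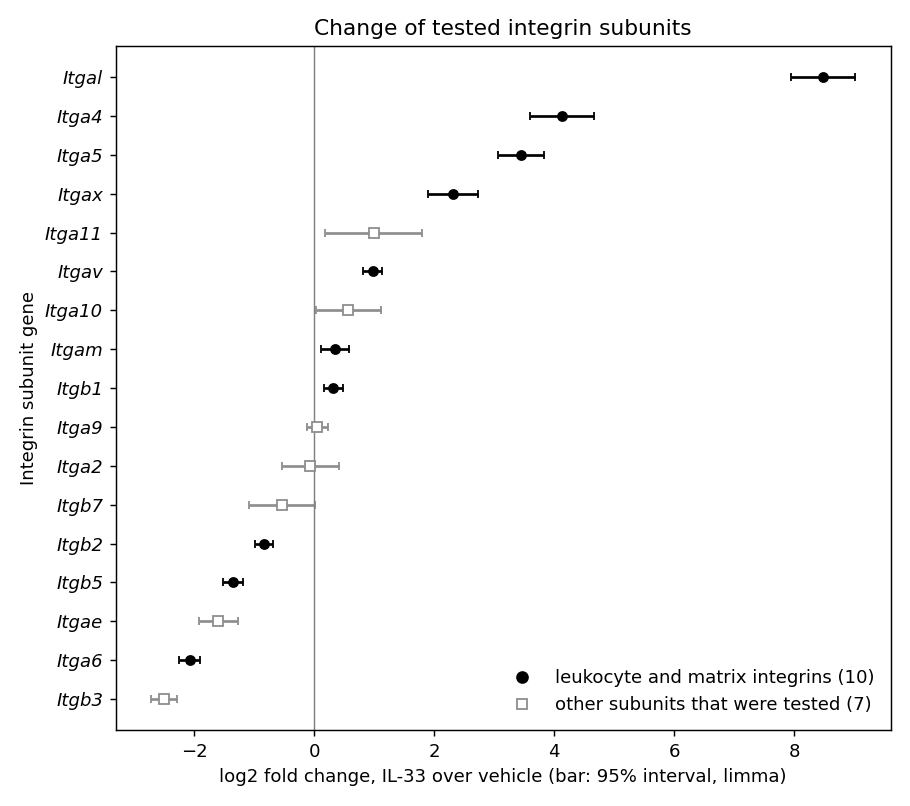
Log2 fold change of IL-33 over vehicle, with 95% intervals from limma, for the 10 integrin genes (filled circles) and 7 other tested subunits (open squares), from 4 mice per group. Values run from 8.48 for Itgal to -2.51 for Itgb3.

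Of 16 other integrin subunit genes 7 were tested, with a median log2 fold change of -0.066. Of these 1 rose, 2 fell and 4 were not called, against 29.2% higher and 28.5% lower over all tested genes. Itgae, an alpha subunit that binds E-cadherin, fell, with 71.6 ± 6.71 in IL-33 mice and 219.8 ± 27.4 in vehicle mice (log2 -1.60, adjusted p = 8.79e-08). Itga11, a collagen receptor subunit named after its value was seen, was the gene called higher, with 23.4 ± 3.76 in IL-33 mice and 12.3 ± 5.96 in vehicle mice (log2 0.99, adjusted p = 0.0353). That call was lost in edgeR, in DESeq2, in each sex alone and without any 1 of 6 of the 8 mice. Itga9 had 2244 ± 185 in IL-33 mice and 2171 ± 199 in vehicle mice and was not called (log2 0.048, adjusted p = 0.637). Without vehicle mouse 6, 2 of the 7 rose.

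The order of the 10 genes by mean normalized count per kilobase of exon differed between the groups. In IL-33 mice it was Itgam (2826 ± 272), Itga5 (807 ± 146), Itgal (655 ± 67.1), Itgb5 (575 ± 54.1), Itgb1 (553 ± 25.1), Itgav (522 ± 54.2), Itgb2 (508 ± 31.01), Itga6 (152 ± 14.1), Itgax (97.3 ± 24.97) and Itga4 (34.04 ± 2.599). From Itga5 down to Itgb2 the mice of each gene overlapped with those of the next in the order. Across larger steps they did not all overlap, since every Itga5 value lay above every value of Itgb5, Itgb1, Itgav and Itgb2, and every Itgal value above every Itgb2 value. In vehicle mice it was Itgam (2239 ± 376), Itgb5 (1471 ± 83.95), Itgb2 (913 ± 24.9), Itga6 (644 ± 48.8), Itgb1 (445 ± 31.7), Itgav (265 ± 9.93), Itga5 (74.9 ± 19.9), Itgax (19.6 ± 5.95), Itga4 (2.01 ± 0.848) and Itgal (1.803 ± 0.909). There only Itga4 and Itgal, the lowest 2, overlapped. Divided by the longest transcript instead, Itga6 (1349 per kilobase) stood above Itgb2 (938) in vehicle mice. In IL-33 mice Itgav (795) then stood above Itgb5 (623) and Itgb1 (592).

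**Figure D4:**
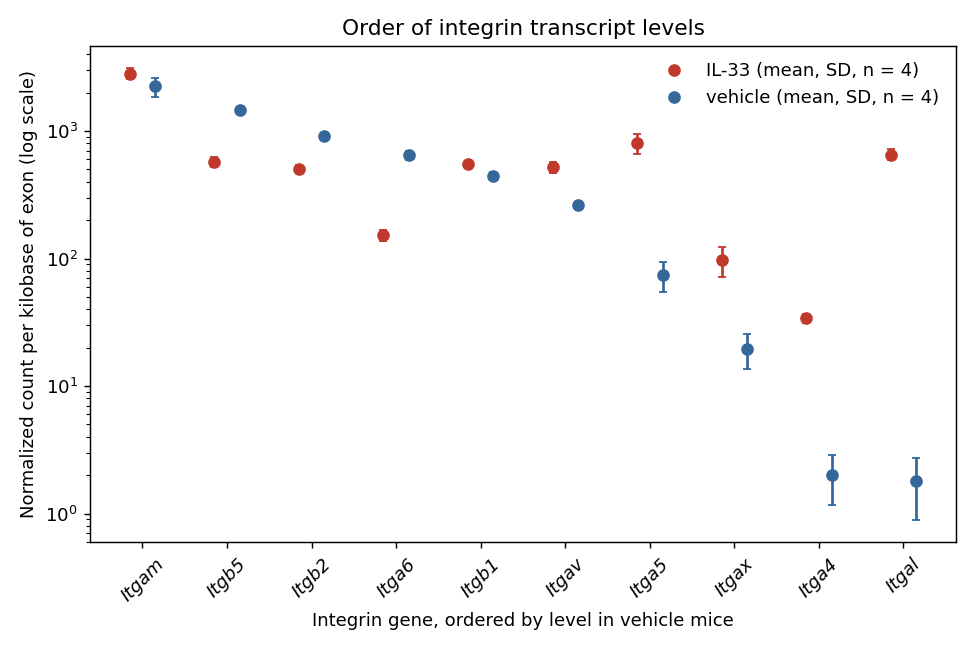
Normalized count per kilobase of merged exon of the 10 integrin genes as mean and SD of 4 IL-33 mice (red) and 4 vehicle mice (blue), on a log axis and ordered by the vehicle level. Itgal averages 655 per kilobase with IL-33 and 1.803 with vehicle.

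Spread within the groups was uneven. The coefficient of variation of Itgb2 was 6.101% in IL-33 mice and 2.73% in vehicle mice. That of Itgax was 25.7% in IL-33 mice, the widest there, and that of Itgal 50.4% in vehicle mice, the widest there. Among vehicle mice, mouse 6 was highest for Itgal, Itgam, Itgax and Itga5 and lowest for Itga4, Itgav, Itgb1 and Itga6. Without it 7 of the 10 rose and 3 fell.

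None of the 10 was called for males against females in limma, and 0 had an unadjusted p under 0.05, in a comparison in which 0.0596% of tested genes were called. edgeR and DESeq2 also called 0 of the 10. For Itgax the means were 368 in male and 567 in female IL-33 mice, and 88.6 in male and 99.8 in female vehicle mice (log2 -0.36 male over female, 95% interval -0.77 to 0.054, adjusted p = 0.938). The change with IL-33 was not called as different between males and females for any of the 10 (0.00662% of tested genes called), although 2 had an unadjusted p under 0.05, and edgeR and DESeq2 called 0 of the 10. For Itgam the effect in males was larger by 0.52 log2 units (adjusted p = 0.309), with means of 15281 in IL-33 and 10057 in vehicle males, and 13111 in IL-33 and 12442 in vehicle females. Without vehicle mouse 5 this difference was called (log2 0.70, adjusted p = 0.00269), which leaves mouse 6 as the lone vehicle female, assumed to vary like the other groups. For Itga6 the difference was -0.33 (adjusted p = 0.553).

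The authors' deposited table, which holds 7029 of the 53801 genes, lists all 10, each with the direction given above. It was computed from the same 8 libraries, so it is not independent of the values above. In the authors' deposited table the log2 fold change was 8.54 for Itgal, 4.06 for Itga4, 0.34 for Itgam and -2.08 for Itga6.

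On chromosome 7, 11.1 kb lie between Itgam and Itgax, 3.72 kb between Itgax and Itgad, and 728 kb between Itgal and Itgam. Within 200 kb of Itgal 23 other genes were tested, of which 11 rose and 5 fell, against 29.2% and 28.5% of all tested genes. None of these 23 changed as much as Itgal, which ranked 6 of 15110 tested genes by size of change. The largest rise among them was that of Sephs2 (log2 1.59) and the largest fall that of Qprt (-4.16), both named after their values were seen. Within 200 kb of Itgax 13 other genes were tested, of which 6 rose and 3 fell, and none changed as much as Itgax. Itgav and Itgb2 also changed more than their tested neighbours, and Itga4 had none. Elsewhere a neighbour changed more than the member: Gpr84 (log2 4.56) near Itga5, Heg1 (5.55) near Itgb5, Pdk1 (-2.21) near Itga6 and Nrp1 (-2.83) near Itgb1. Itgam ranked 14 by size of change in its window. These neighbours were named after their values were seen. Itga6, Itga4 and Itgav lie on chromosome 2, 7397 and 4391 kb apart.

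Likeness of pattern was measured over the 8 mice as the root mean square difference of log2 values, each gene centred on its own mean. For Itgal, the largest rise, the nearest genes were Adamts4, a protease of matrix proteoglycans (0.444 log2 units), Gm28913 (0.506) and Ptges, a prostaglandin E synthase (0.601). For Itga6, the largest fall, they were Acox3, a peroxisomal acyl-CoA oxidase (0.0745), Ralgps1, an exchange factor for Ral GTPases (0.07802), and Naglu, a lysosomal glycosidase (0.0888). With 2 groups this measure is led by the difference between them.

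Of 15 tested cell-surface ligands of integrins 8 rose, 2 fell and 5 were not called, with a median log2 fold change of 0.48. Over all tested genes 29.2% rose and 28.5% fell. Vcam1, a ligand of the receptor made from Itga4 and Itgb1, had 2701 ± 114 in IL-33 mice and 73.9 ± 16.3 in vehicle mice (log2 5.20, adjusted p = 3.53e-15). Icam1, a ligand of the receptor made from Itgal and Itgb2, had 3866 ± 276 in IL-33 mice and 400.2 ± 79.8 in vehicle mice (log2 3.29, adjusted p = 6.68e-14). In these microglia both ligands and the alpha subunits of their receptors were higher with IL-33. Of the beta subunits, Itgb2 was lower (log2 -0.85) and Itgb1 higher (log2 0.32). Adam8 and Adam17, membrane metalloproteases with disintegrin domains, rose by 1.01 and 0.81 log2 units, the call of Adam8 being lost in males alone. Jam2, a junctional adhesion molecule, had 249.6 ± 35.3 in IL-33 mice and 971 ± 93.9 in vehicle mice (log2 -1.96).

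Of 27 matrix and soluble ligand genes 11 were tested (median log2 -0.32). Of these 3 rose, 3 fell and 5 were not called, against 29.2% higher and 28.5% lower over all tested genes. C3, whose cleavage product iC3b is bound by complement receptors 3 and 4, had 638 ± 92.9 in IL-33 mice and 9.06 ± 5.76 in vehicle mice (log2 6.21, adjusted p = 9.58e-07). Tgfb1, whose latent form is activated by Itgav integrins, had 1030.4 ± 62.5 in IL-33 mice and 1547 ± 242 in vehicle mice (log2 -0.57). Lamb2, a laminin chain, had 92.4 ± 10.2 in IL-33 mice and 131 ± 12.7 in vehicle mice (log2 -0.50), a call lost in each sex alone. Of the other tested laminin chains, Lama5 rose, with 85.6 in IL-33 mice and 4.76 in vehicle mice (log2 4.08, adjusted p = 2.80e-07). Lamc1 was not called (log2 -0.17). Lama5 and Lamc1 were named after their values were seen.

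**Figure D5:**
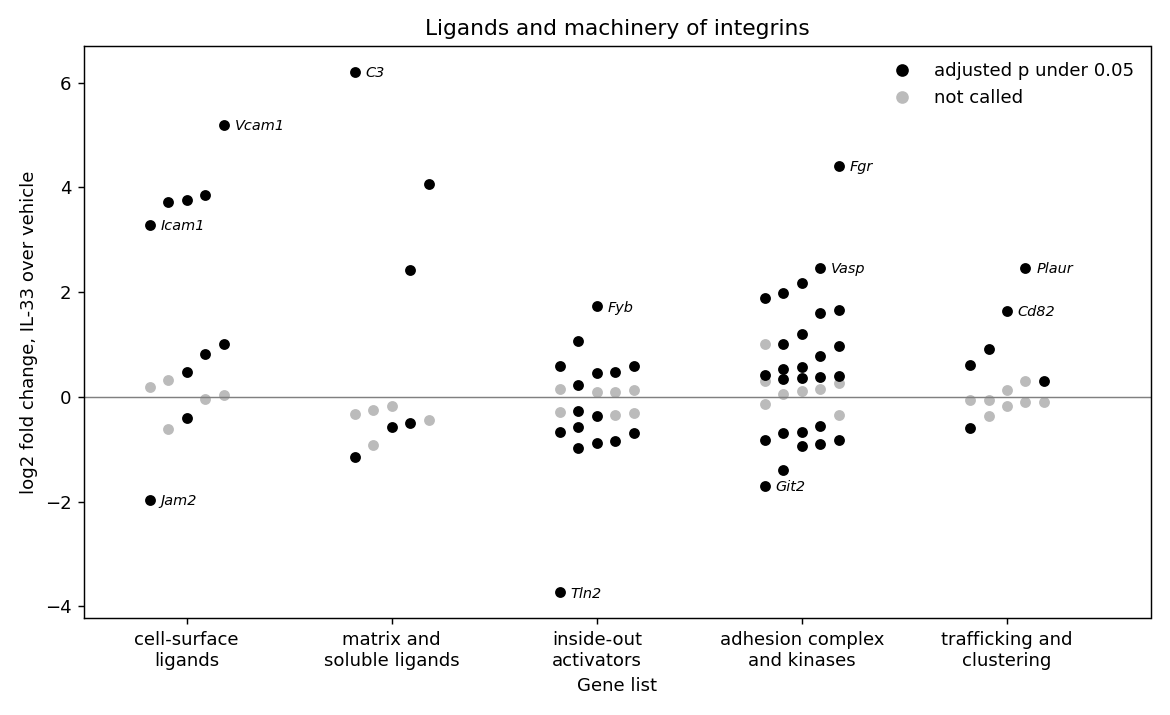
Log2 fold change of IL-33 over vehicle for every tested gene of 5 lists of integrin ligands and machinery, 1 point per gene, black where called and grey where not, spread sideways only to separate points. C3 (6.21) lies highest and Tln2 (-3.73) lowest.

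Among genes that switch integrins on or off from inside the cell, 23 were tested (median log2 -0.28). Of these 7 rose, 9 fell and 7 were not called, against 29.2% higher and 28.5% lower over all tested genes. Tln2, a talin, had 92.2 ± 5.21 in IL-33 mice and 1238 ± 118 in vehicle mice (log2 -3.73, adjusted p = 2.23e-14). Tln1, the main talin of blood cells, had 4285 ± 176 in IL-33 mice and 3111 ± 283 in vehicle mice (log2 0.47). Fermt3, the kindlin of blood cells, had 1086 ± 44.2 in IL-33 mice and 1738 ± 243 in vehicle mice (log2 -0.67). Tln1 and Fermt3 were named after their values were seen. Sipa1 and Sipa1l1, which switch off RAP GTPases, had log2 fold changes of -0.97 and -0.89. Fyb, the adaptor ADAP, rose by 1.73 log2 units, and Flna, a filamin that binds beta tails, by 1.06.

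Among genes of the adhesion complex and the kinases downstream of bound integrins, 35 were tested (median log2 0.36). Of these 18 rose, 9 fell and 8 were not called, against 29.2% higher and 28.5% lower over all tested genes. The Src-family kinases Fgr and Src rose by 4.42 and 1.89 log2 units. Fgr had 857, 641, 794 and 658 in IL-33 mice, against 34.5, 112, 10.1 and 30.03 in vehicle mice, so the vehicle mice differed widely. Vasp, which promotes actin filament growth, rose by 2.47 log2 units, and Git2, an adhesion adaptor, had 1510.2 ± 139 in IL-33 mice and 4896 ± 257 in vehicle mice (log2 -1.70).

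Among genes of integrin trafficking and clustering, 14 were tested (median log2 0.038). Of these 5 rose, 1 fell and 8 were not called, against 29.2% higher and 28.5% lower over all tested genes. Without vehicle mouse 6, 3 fell. Plaur, the urokinase receptor, rose by 2.46 log2 units, Cd82, a tetraspanin, by 1.64, Arf6, a GTPase of membrane recycling, by 0.92, and Slc3a2, which binds beta tails, by 0.60. Dab2, an endocytic adaptor, had 524 ± 45.9 in IL-33 mice and 797 ± 142 in vehicle mice (log2 -0.59).

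Microglia markers were high in all mice, with a sum of 140107 to 160399 in IL-33 mice and 236265 to 271566 in vehicle mice. Of 16 tested 12 fell and 4 were not called, where 28.5% of all tested genes fell. Tmem119, a microglia marker, had 10343 ± 925 in IL-33 mice and 16373 ± 806 in vehicle mice. Border-associated macrophage markers summed to 2036 to 2289 in IL-33 mice and 5008 to 6513 in vehicle mice, and both tested genes fell. Neuronal markers summed to 162 to 236 in IL-33 mice and 168 to 286 in vehicle mice. Astrocyte markers summed to 2449 to 2699 in IL-33 mice and 1601 to 1911 in vehicle mice. Among 5 tested astrocyte markers 1 rose, 1 fell and 3 were not called, with a median log2 fold change of 0.034. Over all tested genes 29.2% rose and 28.5% fell. Oligodendrocyte lineage markers summed to 594 to 767 in IL-33 mice and 480.5 to 567 in vehicle mice. Endothelial markers summed to 283 to 373 in IL-33 mice and 379 to 571 in vehicle mice.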

How the data were processed

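Per the labels' protocols, RNA of sorted cortical microglia was prepared with a Nugen Ovation V2 kit. Per the submitters' processing notes, the tools were DESeq2 1.24.0, HTSeq 0.9.0, STAR 2.6.0 and FastQC, with GRCm38 and mm10 as builds. The deposited expression table holds the authors' normalized counts, a signal of gene counts divided by size factors. The authors' comparison table holds deposited log2 fold changes and their errors, a test score and p-values, for 7029 genes. Whole reads were recovered from the steps of the normalized counts (100% of values whole within 0.001 reads). No column of per-sample values was left unmapped.

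limma 3.58.1 (R 4.3.3, trend and robust) was run on log2(normalized count + 1) with treatment and sex as terms, over genes at 10 or more in at least 4 libraries, and was tested on simulated data. Genes with a Benjamini-Hochberg adjusted p under 0.05 were called. edgeR 4.0.16 and DESeq2 1.42.0 were run on the recovered reads as alternatives. Other alternatives were pseudocounts, filters, scaling, no sex term, each sex alone and each mouse left out. Exon lengths came from GENCODE M21, in which 53620 of 53801 identifiers were found. The members and gene lists were chosen with earlier results of these data known. Named list genes were up to 5 called genes with the largest change among those with a mean of 50 or more, and exceptions are marked. Of marker lists, the 3 genes with the highest mean were to be named; other markers, such as those with no read, were named after their values were seen. The intervals given are at 95%. Some genes that the rule names are not reported here.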

Additional observations from a re-analysis of the deposited data

Results flagged for a closer look

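Itgal in vehicle mouse 6 stood apart from the other vehicle mice, with 20.7 normalized counts against 10.01 in the nearest of them. The gap made up 0.858 of the range of the 4 vehicle mice, above Dixon's 95% critical value. It was the 1 sample so set apart in 22 groups examined, where chance sets apart about 1 in 20.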

How the results depend on the processing

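Each of the 10 genes was refitted under 20 alternatives. Of these 200 fits 196 kept direction and call, 4 lost the call, all for Itgam, and 0 reversed. The number of the 10 that rose was 6 to 7 and the number that fell was 3 throughout. The number of all genes called for IL-33 was 8716, and 8064 to 8712 with 1 mouse left out. It was 6336 in females alone and 7542 in males alone. With no filter 9385 of 30616 genes were called, and with a filter at 50 normalized counts 7062 of 10636. For males against females 9 genes were called, 18 with no filter, 23 with DESeq2, 63 in IL-33 mice alone, 20 in vehicle mice alone and 9 to 14 with 1 mouse left out, the 14 without vehicle mouse 6. For a different change with IL-33 in males and females 1 gene was called, 29 with no filter, 29 with DESeq2, 4 with edgeR, 0 without the trend and robust settings and 0 to 371 with 1 mouse left out, the 371 without vehicle mouse 5. The cause was not tested. Itga2 (-0.066) reversed with quantile normalization (0.021), in males alone (0.12) and with 1 mouse left out (-0.22 to 0.058), and Itga9 with quantile normalization (-0.021), in females alone (-0.063) and with 1 mouse left out (-0.031 to 0.087); neither was called. No paired analysis was possible because the mice carry the numbers 1 to 4 and 5 to 8, which the groups do not share. Depth limits Itgal in vehicle mice, whose 48 reads set its fold change, and genes below the filter.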
